A study of Danio rerio with 24 samples.

Results

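The genes of oxidative phosphorylation were followed across adult zebrafish whole brains of wild type (wt) and of 4 neurexin double-mutant lines. A gene was taken as a member when its symbol began, whatever its case, with mt-nd, mt-co, mt-cyb, mt-atp, nduf, sdh followed by a to d, uqcr, cox4 to cox8 or atp5, and when it had at least 10 counts in at least 3 libraries. The symbols of 121 genes matched, and 113 of them passed the count filter, of 37241 genes in the table and 23641 past the filter. Of the 113 members, 13 are encoded in the mitochondrial genome and 100 in the nucleus. The nuclear members comprise 87 subunits, 12 assembly factors and 1 inhibitor of the ATP synthase. The 8 matching genes below the filter are NDUFA12, NDUFB4, NDUFB5, NDUFB9, NDUFS1, NDUFS4, COX7A2L and atp5if1b, none of which reached 10 counts in any library. The symbols of 79 members are in capitals, a spelling carried over from another species, and the identifiers are those of Ensembl.

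Each genotype had 3 libraries, so that the values below come from 15 libraries. The count filter was applied over all 24 libraries of the series. SDHC, of complex II, had at most 3 raw counts in any of the 15 and passed through the libraries not reported here. It is kept in the counts of members, where its fold changes rest on few or no reads. The wt fish and the 4 lines are of the AB background, and the mutants are homozygous for CRISPR/Cas9 deletions in both zebrafish copies of a neurexin, a presynaptic adhesion molecule. The genotypes are nrxn2a_full:nrxn2b_full and nrxn3a_full:nrxn3b_full, in which the deletions were made to take out the whole genes, and nrxn2a_tmr:nrxn2b_tmr and nrxn3a_tmr:nrxn3b_tmr, which lack the transmembrane region in the last exon. They are called nrxn2 full, nrxn3 full, nrxn2 tmr and nrxn3 tmr. Libraries carry the replicate numbers of the labels, which give the stage as adult and give neither age nor sex. The labels do not say whether libraries of a genotype came from separate fish, so the p-values measure the spread between these libraries, which may be technical. Each line is set against the same 3 wt libraries, so the 4 comparisons with wt are not independent of each other.

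Oxidative phosphorylation runs in the inner mitochondrial membrane. Complex I (NADH dehydrogenase) and complex II (succinate dehydrogenase) pass electrons to ubiquinone, complex III hands them to cytochrome c, complex IV (cytochrome c oxidase) reduces oxygen, and the proton gradient built on the way drives complex V, the ATP synthase. The mitochondrial genome encodes the hydrophobic core of complexes I, III, IV and V and none of complex II. Its genes are transcribed as long precursors that are cut apart, whereas each nuclear subunit has a promoter of its own, so the 2 sets are made by separate polymerases. Neurons spend much of their ATP on ion pumping and synaptic transmission.

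Total counts ran from 28512102 to 38016650 per library. The share of all counts that fell on the 13 mitochondrially encoded members ran from 7.94% to 12.6%. The neurexins themselves were reduced in the full lines, with nrxn2a at 8.65%, nrxn2b at 30.3% and a further identifier with the symbol NRXN2 (ENSDARG00000113112) at 40% of the wt mean in nrxn2 full, and nrxn3b at 0.0427% and NRXN3 at 11.3% in nrxn3 full. The tmr deletions remove too little of a gene for its count to check them, and nrxn2a stood at 94.9% and nrxn2b at 96.8% of wt in nrxn2 tmr. Levels below are normalised read counts, that is counts divided by the DESeq2 size factor of the library. They are not divided by gene length, so levels of different genes are not compared. Differences are log2 fold changes from edgeR's quasi-likelihood test, and a gene was called when its p-value, adjusted by the Benjamini-Hochberg method over all 23641 genes, was under 0.05.

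The members differed most between the 2 nrxn2 lines. In nrxn2 full 59 of the 113 members were higher than in nrxn2 tmr and 1 was lower, which is 52.2% and 0.885% of the members, where 5.91% of all genes tested were called higher and 5.95% lower. The median log2 fold change over the 113 members was 0.31, against -0.003 over all genes tested, and 101 members lay above 0. The mitochondrially encoded members had 11 of 13 called higher with a median of 0.42, and the nuclear members had 48 of 100 called higher, 1 called lower and a median of 0.30. In 58 members (51.3%) every nrxn2 full library lay above every nrxn2 tmr library, and in 5 members (4.42%) every one lay below, against 14.7% and 14.3% of all genes. The count of 60 calls depended on single libraries of both lines. It was 78 without nrxn2 full replicate 1, 18 without replicate 2 and 13 without replicate 3. Without nrxn2 tmr replicate 1 it was 14, without replicate 2 it was 25 and without replicate 3 it was 40. It was 17 when only the 6 libraries of the 2 lines were fitted.

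**Figure D1:**
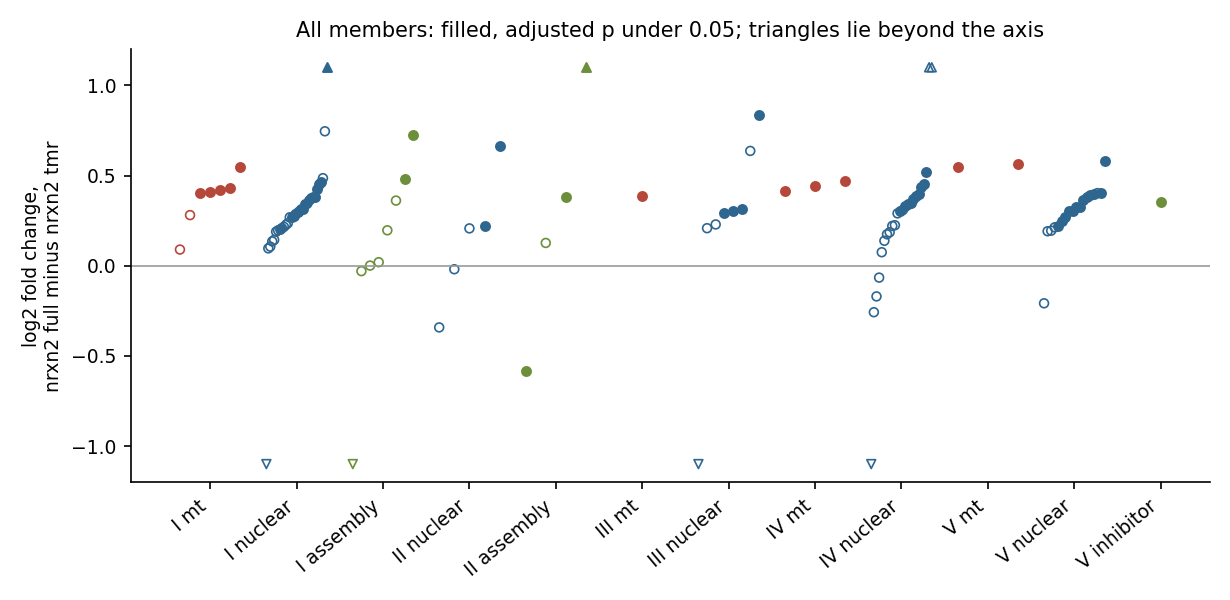
Log2 fold change of each of the 113 members in nrxn2 full minus nrxn2 tmr (edgeR), by complex, with mitochondrially encoded members in red, nuclear subunits in blue and assembly factors or the inhibitor in green, filled where called at an adjusted p under 0.05 and drawn as triangles where a value lies beyond the axis. Most points of complexes I, III, IV and V lie to the same side of 0, with 59 members called higher and 1 called lower.

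Within complex IV all 3 mitochondrially encoded subunits, which form its catalytic core, were higher in nrxn2 full than in nrxn2 tmr. MT-CO1, which holds the site of oxygen reduction, had 1211000, 1338000 and 1344000 normalised read counts in nrxn2 full, 941100, 950200 and 918700 in nrxn2 tmr and 1128000, 1034000 and 1020000 in wt. The 2 lines did not overlap, and the wt libraries lay between them. MT-CO1 differed by 0.47 (SE 0.10, adjusted p = 0.0062, edgeR), MT-CO2 by 0.41 (adjusted p = 0.011) and MT-CO3 by 0.44 (adjusted p = 0.008), and these 3 calls held under every alternative that was run, with a highest adjusted p of 0.03, 0.049 and 0.039. Of the 24 nuclear members of complex IV, the NDUFA4 copies included, 10 were called higher, with a median of 0.31. COX4I1, the most counted of them and a regulatory subunit, had 12840, 15260 and 15510 in nrxn2 full and 10590, 11570 and 12080 in nrxn2 tmr, again without overlap (0.35, SE 0.08, adjusted p = 0.0099). The wt libraries, with 12800, 12040 and 12520, lay below every nrxn2 full library, the nearest values being 12800 and 12840. COX4I1 was not called in nrxn2 full against wt. The call of COX4I1 between the nrxn2 lines was lost without nrxn2 full replicate 3 or nrxn2 tmr replicate 1, with adjusted p-values of 0.055 and 0.054. Its other copies were not called, with 0.07 for COX4I2.

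In complex I, 5 of the 7 mitochondrially encoded and 14 of the 32 nuclear subunits were higher in nrxn2 full than in nrxn2 tmr. The medians were 0.41 and 0.29. MT-ND3, a small membrane subunit, had 33970, 38170 and 37350 in nrxn2 full, 21410, 26930 and 26640 in nrxn2 tmr and 32680, 31840 and 35530 in wt (0.55, SE 0.13, adjusted p = 0.011). The lines did not overlap, and its call was lost only without nrxn2 tmr replicate 1 (adjusted p = 0.062). The mitochondrially encoded subunits that were not called were MT-ND5 (0.28) and MT-ND6 (0.09). NDUFB7, an accessory subunit of the membrane arm, had 3316, 3992 and 4018 in nrxn2 full, 2576, 2886 and 2826 in nrxn2 tmr and 2910, 3010 and 3162 in wt (0.45, SE 0.08, adjusted p = 0.0023), a call that held under every alternative. All nrxn2 full libraries of NDUFB7 lay above those of nrxn2 tmr and wt. NDUFV1, which binds NADH and is the most counted nuclear member of complex I, was not called (0.13), and of the 6 nuclear core subunits 2 were called.

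Complex V had the highest share of nuclear subunits called, 13 of 18 with a median of 0.31, and both of its mitochondrially encoded subunits were called. MT-ATP6 (adjusted p = 0.035) and mt-atp8 (0.042) lost these calls without any 1 of the 6 libraries but nrxn2 full replicate 1. With a replicate block both calls were lost as well (0.056 and 0.072). atp5md, a small subunit of the membrane part, had 2521, 2955 and 2777 in nrxn2 full and 1718, 1778 and 2021 in nrxn2 tmr (0.58, SE 0.12, adjusted p = 0.006), with no overlap, and its call held under every alternative. ATP5F1B, the catalytic beta subunit and the most counted nuclear member, was not called (0.19). In complex III the mitochondrially encoded MT-CYB (0.38, SE 0.12, adjusted p = 0.037) and 4 of 8 nuclear subunits were higher. MT-CYB lost this call without any 1 of the 6 libraries but nrxn2 full replicate 1 (adjusted p from 0.059 to 0.15). UQCRFS1, the iron-sulphur subunit, was not called (0.23). UQCRB was higher by 0.84 (SE 0.24, adjusted p = 0.031), at the low level of 72.3, 71.9 and 74.9 in nrxn2 full and 41.7, 34.0 and 47.0 in nrxn2 tmr, and lost the call without nrxn2 full replicate 2 or 3 or nrxn2 tmr replicate 1 or 2 (0.071 to 0.11).

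Complex II has no mitochondrially encoded part. Its most counted member was not called, as was the case for the most counted nuclear members of complexes I, III and V. SDHA, the flavoprotein that oxidises succinate, had 23120, 25500 and 23690 in nrxn2 full and 23960, 25550 and 23790 in nrxn2 tmr, and did not pass the test (-0.02, SE 0.06). Of the 5 complex II subunits 2 were called, and the larger of these differences belonged to an SDHD copy described further on. Another of the 5, SDHC, had at most 3 raw counts in any of the 15 libraries. Of the 13 members that are assembly factors or the inhibitor, 5 were higher and 1 was lower. NDUFAF1, a chaperone of the complex I membrane arm, had 912.6, 1079 and 1333 in nrxn2 full and 624.3, 681.5 and 708.3 in nrxn2 tmr (0.72, SE 0.17, adjusted p = 0.0092), and lost its call only without nrxn2 full replicate 3 among the libraries (0.062). The member called lower was sdhaf1, which delivers iron-sulphur clusters to SDHB, with 404.7, 393.6 and 364.9 in nrxn2 full and 608.2, 598.6 and 536.6 in nrxn2 tmr (-0.58, SE 0.17, adjusted p = 0.03). The wt libraries of sdhaf1 had 453.1, 421.3 and 319.4 and overlapped those of nrxn2 full. Its call was lost without nrxn2 full replicate 2 or 3 or nrxn2 tmr replicate 1 or 2, with adjusted p-values from 0.075 to 0.11.

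Against wt, the 2 nrxn2 lines lay on opposite sides. In nrxn2 full 94 of the 113 members lay above 0 with a median of 0.15, and in nrxn2 tmr 94 lay below 0 with a median of -0.14. Most members lay below 0 in the nrxn3 lines too, 86 in nrxn3 full (median -0.11) and 75 in nrxn3 tmr (median -0.05). Of the 87 nuclear subunits, 71 lay below 0 in nrxn2 tmr and 73 in nrxn3 full, with a median of -0.12 in both. Few single members passed the test. In nrxn2 full 5 members (4.42%) were called higher and 0 lower, beside 4.57% and 5.08% of all genes, and in nrxn2 tmr 0 were called higher and 8 (7.08%) lower, beside 3.71% and 4.77%. By edgeR the count of members called higher in nrxn2 full was thus near that of all genes. Overlap with wt was counted over the members for the nrxn2 lines only, not for the nrxn3 lines. Of the 2 nrxn2 lines, groups that did not overlap were more frequent for nrxn2 tmr. There 44 members (38.9%) lay below wt and 3 (2.65%) above in every library, against 14.2% and 14.1% of all genes. These 44 held 12 of the 13 mitochondrially encoded members and 32 nuclear ones. In nrxn2 full 18 members (15.9%) lay above wt and 4 (3.54%) below, against 12.3% and 12%. The 5 calls in nrxn2 full became 40 without nrxn2 full replicate 1, 2 without replicate 2 or replicate 3 and 3 without wt replicate 3. Of the 5, 1 was kept without nrxn2 full replicate 3 and 2 without wt replicate 3. With only the libraries compared, nrxn2 tmr had 4 calls, of which 1 was among the 8. With a library left out nrxn2 tmr had between 2 and 8 calls. At an unadjusted p under 0.05 the members were 32 higher and 2 lower in nrxn2 full and 3 higher and 29 lower in nrxn2 tmr, and DESeq2 called 11 and 1, and 1 and 12.

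**Figure D2:**
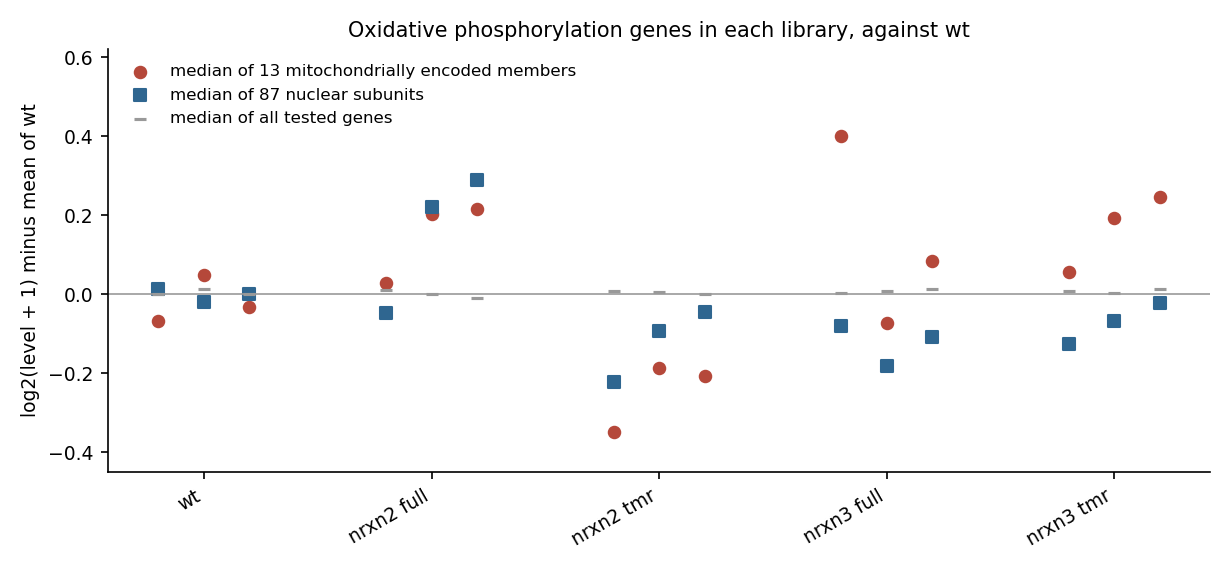
Median log2 difference from the wt mean in each of the 15 libraries, for the 13 mitochondrially encoded members (red) and the 87 nuclear subunits (blue), by genotype. Both sets lie below 0 in all 3 nrxn2 tmr libraries and above it in 2 of the 3 nrxn2 full libraries, and the sets part in nrxn3 tmr.

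The medians per library show that replicate 1 of nrxn2 full stood apart from the other 2. The median log2 difference from the wt mean was 0.03, 0.20 and 0.22 over the mitochondrially encoded members in nrxn2 full replicates 1, 2 and 3, and -0.05, 0.22 and 0.29 over the 87 nuclear subunits. In nrxn2 tmr it was -0.35, -0.19 and -0.21 for the mitochondrially encoded and -0.22, -0.09 and -0.05 for the nuclear subunits. Over all genes tested the median lay between -0.01 and 0.01 in every library. The mitochondrially encoded share of all counts was 10.2%, 11.1% and 11.2% in nrxn2 full, 7.94%, 8.59% and 8.33% in nrxn2 tmr and 9.52%, 10.3% and 9.46% in wt, so that every nrxn2 tmr library lay below every wt library.

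Outside the nrxn2 lines the 2 sets of genes did not keep together. In nrxn3 tmr the mitochondrially encoded medians were 0.05, 0.19 and 0.25 and those of the nuclear subunits -0.13, -0.07 and -0.02. In nrxn3 full they were 0.40, -0.07 and 0.08 against -0.08, -0.18 and -0.11, with 1 library far above the other 2. The 3 nrxn3 full libraries gave the mitochondrially encoded genes 12.6%, 9.73% and 10.2% of all counts. Counts of members called in the nrxn3 lines were low. They were 2 higher and 1 lower in nrxn3 full (1.77% and 0.885%, beside 3.95% and 4.19% of all genes) and 1 and 3 in nrxn3 tmr (0.885% and 2.65%, beside 3.61% and 3.71%). In each direction the share of members called was below that of all genes. The 4 calls in nrxn3 tmr became 0 without its replicate 3 and 2 without its replicate 4 or 5 or wt replicate 5. The 2 without wt replicate 5 held 0 of the 4. The 3 calls in nrxn3 full became 1 without wt replicate 3 and 5 without wt replicate 1 or 5, and these 5 held 2 of the 3 in either case. Between full and tmr, 2 members were higher and 2 lower for nrxn3 (1.77% each, beside 2.32% and 2.45% of all genes), and the 4 calls became 2 without nrxn3 full replicate 2 or nrxn3 tmr replicate 5.

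To set both genomes side by side, the normalised counts of the mitochondrially encoded and of the nuclear subunits of a complex were summed in each library and the log2 ratio of the sums was taken. The ratio was not tested and is given as a description. In complex I the wt ratios averaged 3.20 ± 0.0476 (SD, n = 3) and in complex IV 4.34 ± 0.0347, but in complex III 3.92 ± 0.218 and in complex V 1.30 ± 0.425. The spread in complex V came from wt replicate 3, with a ratio of 1.78 against 0.96 and 1.17 in replicates 1 and 5. Every nrxn2 tmr library lay below every wt library in both complexes, and the difference from wt was -0.36 in complex III and -0.49 in complex V, against -0.24 and -0.25 without wt replicate 3. Without that library the complex V difference became 0.04 in nrxn2 full, -0.04 in nrxn3 full and 0.235 in nrxn3 tmr. The complex III difference became -0.08 in nrxn2 full. In complex III it went from 0.22 to 0.34 in nrxn3 full and from 0.11 to 0.24 in nrxn3 tmr. The nuclear sum of complex III includes UQCRC1 and UQCRQ, whose levels were very uneven between libraries. UQCRC1 had 8.22, 359.6 and 5.70 in wt, 323.1, 1891 and 5.11 in nrxn2 tmr and 1459, 1631 and 363.9 in nrxn2 full. UQCRQ had 11.3, 16.6 and 16.2 in wt and 824.2, 855.2 and 886.2 in nrxn2 tmr. More reads of these genes lower the ratio, and the ratio without them was not computed.

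**Figure D3:**
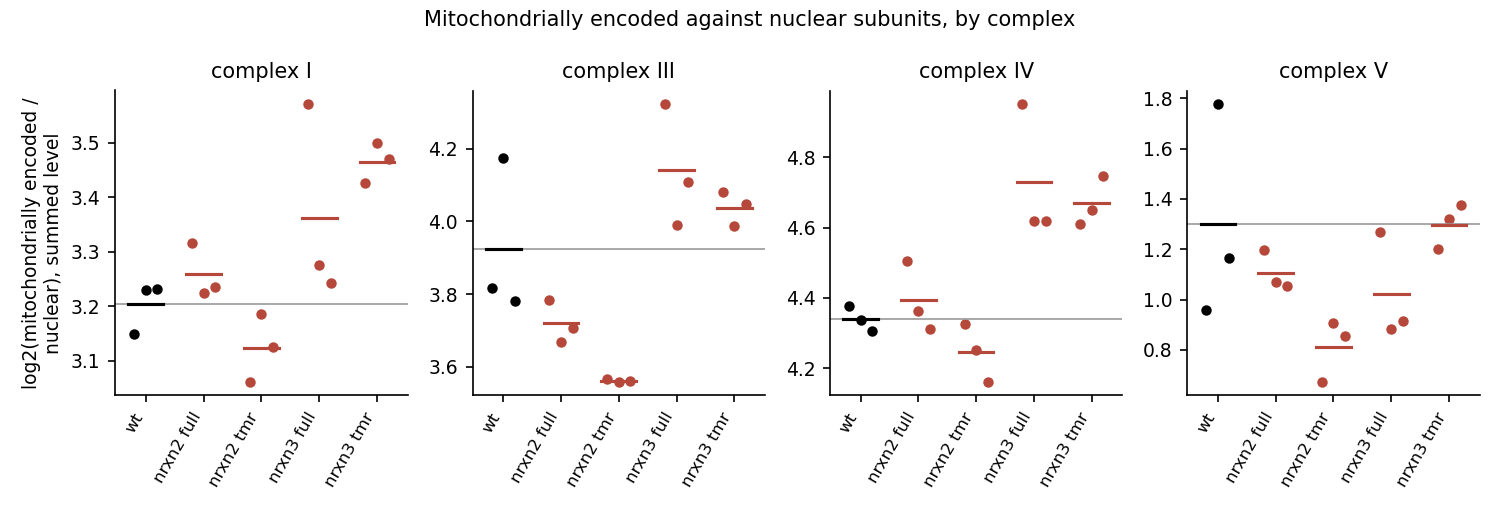
Log2 ratio of summed normalised counts, mitochondrially encoded over nuclear subunits, for complexes I, III, IV and V in the 15 libraries, with 1 point per library, the mean of each genotype as a bar, wt in black and a separate vertical scale in each panel. The wt points of complex V run from 0.96 to 1.78, and those of complex IV lie close together around 4.34.

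In nrxn2 full the ratio stayed near wt in complexes I and IV, where it differed by 0.05 in both, and in nrxn2 tmr it differed by -0.08 and -0.09. In nrxn3 full and nrxn3 tmr the complex IV ratio lay 0.39 and 0.33 above wt and the complex I ratio 0.16 and 0.26 above. Without nrxn3 full replicate 2 the complex I difference in nrxn3 full was 0.055. The complex V ratio differed from wt by -0.28 in nrxn3 full, -0.19 in nrxn2 full and -0.002 in nrxn3 tmr. All are set against the wide wt spread and moved without wt replicate 3, as given above. With the median over subunits in place of the sums, the complex I difference became -0.06 in nrxn2 full and -0.02 in nrxn3 full, and that of complex IV became -0.04 in nrxn2 full, each on the other side of 0.

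**Figure D4:**
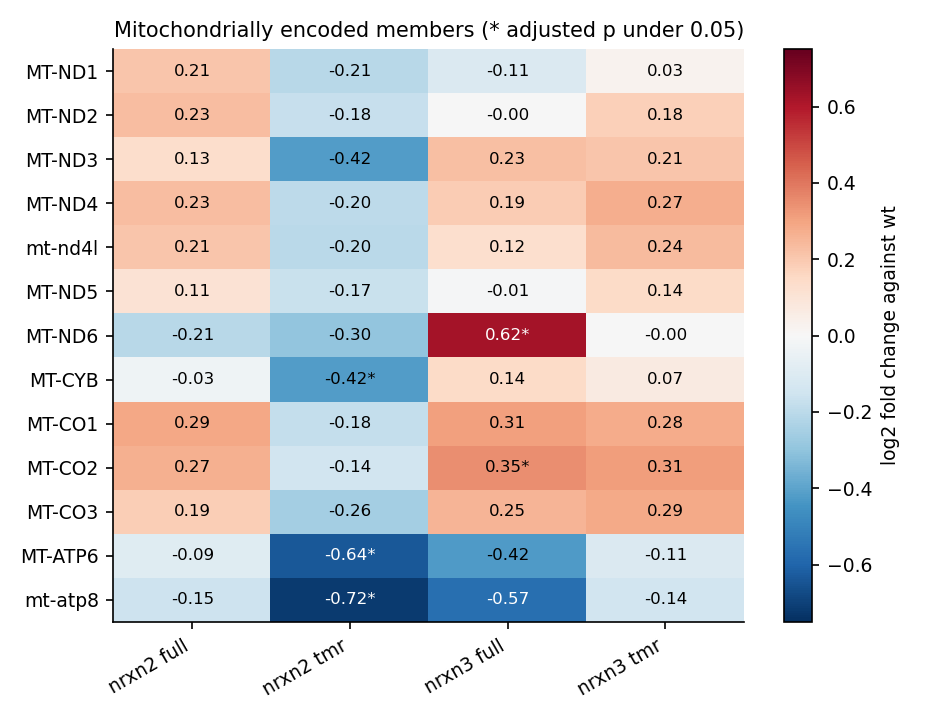
Log2 fold change against wt (edgeR) of the 13 mitochondrially encoded members in the 4 lines, as a colour map with the value in each cell and calls at an adjusted p under 0.05 marked. All 13 genes lie below 0 in nrxn2 tmr. MT-ATP6 and mt-atp8 lie below 0 in each line, against a wt mean raised by wt replicate 3.

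Some mitochondrially encoded genes were called against wt, 3 in nrxn2 tmr and 2 in nrxn3 full. MT-ATP6 and mt-atp8, the membrane subunits of the ATP synthase, overlap on the genome and share reads that the counting cannot assign, so they are 1 observation rather than 2. MT-ATP6 had 304100, 513700 and 351200 in wt and 211900, 268300 and 270800 in nrxn2 tmr. Every nrxn2 tmr library lay below every wt library, and the second wt value, of wt replicate 3, lay far above the others. In nrxn2 full MT-ATP6 had 345700, 375600 and 377400, in nrxn3 tmr 324700, 363300 and 398300, and in nrxn3 full 350100, 249600 and 271400. All libraries of nrxn2 full and nrxn3 tmr thus lay between wt replicates 1 and 3. MT-ATP6 was lower in nrxn2 tmr (-0.64, SE 0.16, adjusted p = 0.02). Without wt replicate 3 this became -0.39 (adjusted p = 0.12), and the call was also lost without nrxn2 tmr replicate 1 (0.098). Per 100 counts of MT-CO1, MT-ATP6 had 22.51, 28.23 and 29.48 in nrxn2 tmr and 26.95, 49.67 and 34.42 in wt, which overlapped. mt-atp8, with 11480, 19320 and 13260 in wt and 7938, 8794 and 10090 in nrxn2 tmr, was lower in nrxn2 tmr (-0.72, SE 0.17, adjusted p = 0.015). It lost this call without wt replicate 3 (adjusted p = 0.088) and without nrxn2 tmr replicate 1 or 2 (0.073 and 0.051).

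MT-CYB, the only complex III subunit of the mitochondrial genome, had 329000, 407600 and 334600 in wt and 241900, 280600 and 279500 in nrxn2 tmr. It was lower in nrxn2 tmr by -0.42 (SE 0.12, adjusted p = 0.03), and the groups did not overlap. The adjusted p was 0.14 without wt replicate 3, and each of the 3 nrxn2 tmr libraries, left out in turn, also ended the call (adjusted p from 0.054 to 0.13). Per 100 counts of MT-CO1, MT-CYB had 25.71, 29.53 and 30.43 in nrxn2 tmr and 29.15, 39.42 and 32.79 in wt, which overlapped.

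In nrxn3 full MT-ND6 and MT-CO2 were higher. MT-ND6 is the subunit encoded on the other strand of the mitochondrial genome from all other members. It had 3019, 2548 and 3536 in nrxn3 full, 2211, 1595 and 2107 in wt and 1830, 2092 and 1982 in nrxn3 tmr. All nrxn3 full libraries lay above every library of the other 4 genotypes, where the highest value was 2211. The differences were 0.62 (SE 0.15, adjusted p = 0.017) from wt and 0.62 (SE 0.15, adjusted p = 0.023) from nrxn3 tmr. Relative to MT-ND5, the neighbouring gene on the opposite strand, MT-ND6 had 1.79, 1.86 and 2.60 counts per 100 in nrxn3 full and 1.56, 1.04 and 1.40 in wt, so the groups did not overlap by that measure either. The call against wt was lost without wt replicate 3 or nrxn3 full replicate 4 (adjusted p = 0.087 and 0.089), and that against nrxn3 tmr without nrxn3 full replicate 2 or 4 or nrxn3 tmr replicate 3 or 5 (adjusted p from 0.06 to 0.12). Which strand setting gave the deposited counts is not stated, and reads of the opposite strand cannot be told apart without it. MT-CO2 had 576700, 437300 and 428100 in nrxn3 full and 390900, 373900 and 367400 in wt (0.35, SE 0.10, adjusted p = 0.034). It lost the call without any wt library (adjusted p from 0.057 to 0.092) and without nrxn3 full replicate 2 (0.2). Per 100 counts of MT-CO1, MT-CO2 had 36.6, 37.9 and 35.45 in nrxn3 full and 34.64, 36.15 and 36.01 in wt, which overlapped.

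In complex II single genes were called. SDHAF2, which attaches the flavin cofactor to SDHA, was nearly absent from nrxn2 tmr. It had 10.4, 13.1 and 6.13 normalised read counts there, 969.9, 1043 and 513.4 in wt and 951.1, 1060 and 1159 in nrxn2 full. The lowest of the other 12 libraries had 513.4. The difference was -6.38 from wt (SE 0.31, adjusted p = 2.2e-10) and 6.71 between nrxn2 full and nrxn2 tmr (SE 0.31, adjusted p = 7.6e-11), and both held under every alternative. SDHA, whose product SDHAF2 serves, had 23960, 25550 and 23790 in nrxn2 tmr and 22450, 24880 and 23700 in wt.

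SDHD, a membrane anchor of complex II, is listed under 2 identifiers. The copy ENSDARG00000055712 had 1123, 934.0 and 1520 in wt, 1590, 1928 and 2109 in nrxn2 full, 1104, 1283 and 1165 in nrxn2 tmr, 1295, 1475 and 1586 in nrxn3 full and 768.6, 884.4 and 781.4 in nrxn3 tmr. Full and tmr did not overlap in either neurexin, and full was the higher one for nrxn2 (0.66, adjusted p = 0.0071) and for nrxn3 (0.84, adjusted p = 0.0018). Both calls held under every alternative. Against wt this SDHD copy was lower in nrxn3 tmr (-0.56, adjusted p = 0.026) and higher in nrxn2 full (0.65, adjusted p = 0.0088). The first was lost without wt replicate 5 (0.13) or nrxn3 tmr replicate 3 or 5 (0.094 and 0.083), and the second without nrxn2 full replicate 3 (0.051). The other SDHD copy, ENSDARG00000030139, ran from 2123 to 2678 over the 15 libraries and was called in none of the comparisons of a line with wt. It too did not overlap between the nrxn2 lines, with 2346, 2648 and 2678 in nrxn2 full and 2152, 2279 and 2168 in nrxn2 tmr. The nrxn3 lines overlapped in this copy.

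SDHAF3, an assembly factor of the iron-sulphur subunit SDHB, was higher than wt in nrxn3 tmr. It had 509.6, 610.0 and 442.1 in wt and 769.7, 691.4 and 757.2 in nrxn3 tmr, which lay above all wt libraries (0.51, SE 0.12, adjusted p = 0.014). It lost this call without wt replicate 5 (0.065) or nrxn3 tmr replicate 3 (0.054).

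COX5A, a complex IV subunit on the matrix side, was called lower in both tmr lines. It had 2845, 2566 and 2945 in wt, 1666, 1977 and 2187 in nrxn2 tmr and 2184, 2190 and 2365 in nrxn3 tmr, so neither line overlapped wt. The libraries of nrxn3 full, with 2514, 2222 and 2422, also lay below every wt library without passing the test (-0.22, adjusted p = 0.12), and those of nrxn2 full had 2363, 2565 and 2618 (-0.15, adjusted p = 0.29). The differences were -0.52 in nrxn2 tmr (SE 0.09, adjusted p = 0.00087) and -0.31 in nrxn3 tmr (SE 0.09, adjusted p = 0.032). The call in nrxn2 tmr held without each library and was lost only when the fit held no other genotypes (adjusted p = 0.055). In nrxn3 tmr COX5A lost the call without wt replicate 1 or 5 or nrxn3 tmr replicate 3 or 4 (0.089 to 0.11). The second copy, cox5aa, was called in none of the comparisons of a line with wt. Between the nrxn2 lines cox5aa did not overlap, with 5493, 6669 and 6883 in nrxn2 full and 4313, 4868 and 5413 in nrxn2 tmr.

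NDUFAF7, a methyltransferase that acts in complex I assembly, was lower in nrxn3 full. It had 248.8, 190.2 and 278.0 there, 465.4, 427.2 and 545.7 in wt and 410.7, 380.7 and 402.8 in nrxn3 tmr, and the lowest of all other libraries had 345.5. The difference from wt was -1.0 (SE 0.14, adjusted p = 0.00025) and held under every alternative. That from nrxn3 tmr was -0.74 (adjusted p = 0.0047). It held without each library and was lost only when the fit held no other genotypes (adjusted p = 0.05).

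In nrxn2 full, cox8a (0.43, SE 0.10, adjusted p = 0.0095) and cox6b2 (0.37, SE 0.09, adjusted p = 0.017), both of complex IV, NDUFB7 (0.32) and atp5mf (0.28) were higher beside the SDHD copy. cox8a held without each library and was lost only when the fit held no other genotypes (adjusted p = 0.061). The related cox8b had 4197, 5721 and 6905 in nrxn2 full and 4257, 6273 and 4464 in wt. For cox6b1, related to cox6b2, the values were 3872, 4963 and 5100 in nrxn2 full and 4267, 4564 and 3457 in wt. Both overlapped wt, and neither was called in nrxn2 full. cox6b2 was lost without wt replicate 3 or nrxn2 full replicate 2 or 3 (adjusted p from 0.06 to 0.086), NDUFB7 without those or wt replicate 1 (0.052 to 0.1), and atp5mf without wt replicate 3 or 5 or nrxn2 full replicate 2 or 3 (0.084 to 0.22). In nrxn3 tmr ndufa5 was lower (-0.20, adjusted p = 0.045), a call lost without any of the 6 libraries but wt replicate 1 (adjusted p from 0.081 to 0.16). In nrxn2 tmr ndufc1 was lower (-0.57, SE 0.17, adjusted p = 0.041), which was lost without any but wt replicate 5 (0.086 to 0.15). SDHAF3 was lower in nrxn3 full than in nrxn3 tmr (-0.50, adjusted p = 0.022), lost without nrxn3 full replicate 2 or 4 or nrxn3 tmr replicate 3 or 5 (0.063 to 0.095).

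Some members had many reads in some libraries of a genotype and few or none in others. NDUFAB1, the acyl carrier of complex I, had 177, 119 and 1493 raw counts in wt, 153, 160 and 684 in nrxn3 tmr and 0 in all 3 nrxn2 tmr libraries. Against a floor of 3 counts over the nrxn2 tmr libraries (0.943 normalised read counts) wt was at least 616-fold higher and nrxn2 full at least 163-fold. The bound for wt was 171-fold without wt replicate 5. The second copy, ndufab1b, had 1998, 2145 and 2270 in nrxn2 tmr and 2054, 2109 and 2342 in wt. The NDUFAB1 call in nrxn2 tmr (adjusted p = 0.024) was lost without wt replicate 5 (0.061) or any nrxn2 tmr library (0.076 to 0.078).

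**Figure D5:**
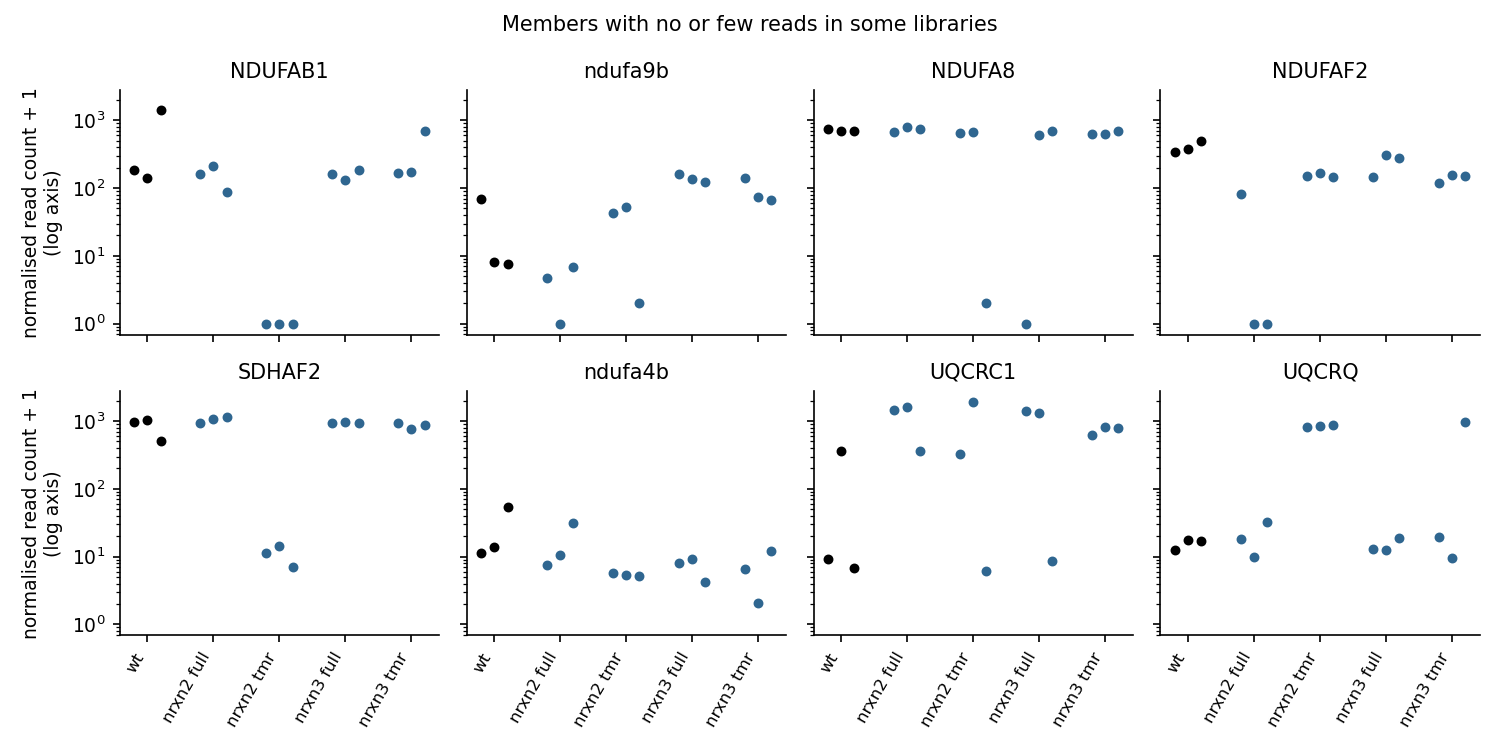
Normalised read counts plus 1, on a log axis, of 8 members with few or no reads in some libraries, by genotype, with 1 point per library. UQCRQ takes either of 2 levels, 8.48 to 31.1 or 824.2 to 981.3, and in nrxn3 tmr both occur.

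UQCRQ, a small complex III subunit, took only 2 levels. It had 11.3, 16.6 and 16.2 in wt, 18.7, 8.48 and 981.3 in nrxn3 tmr, 824.2, 855.2 and 886.2 in nrxn2 tmr and 16.9, 8.75 and 31.1 in nrxn2 full, so the nrxn2 lines held opposite levels throughout, and the difference still did not pass the test (adjusted p = 0.084). NDUFA8 had 615.5 to 795.9 in 13 libraries and raw counts of 1 and 0 in 1 library each of nrxn2 tmr and nrxn3 full. UQCRC1 and ndufa9b also spanned more than 10-fold within 3 and 2 of the genotypes. NDUFAF2, an assembly factor of complex I, had 87, 0 and 0 raw counts in nrxn2 full and from 109 to 525 in the other libraries. ndufa4b had 4.74, 4.36 and 4.09 in nrxn2 tmr and 10.3, 13.1 and 52.3 in wt (-2.49, SE 0.74, adjusted p = 0.043), and lost its call without wt replicate 5 (0.29) or any nrxn2 tmr library (0.11 to 0.12).

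Genes that work beside the respiratory chain were counted from lists, to be read beside the 5.91% of all genes called higher and the 5.95% called lower. In nrxn2 full minus nrxn2 tmr, 11 of 68 mitochondrial ribosomal proteins were higher, with a median of 0.17. Their ribosome makes the 13 mitochondrially encoded proteins. Of 23 genes of the TCA cycle and pyruvate dehydrogenase 5 were higher (median 0.14), of 19 outer membrane proteins and carriers 4 (median 0.20), and of 31 glycolytic genes 5 were higher and 1 was lower (median 0.17). No gene of the first 3 lists was called lower. CYC1, the cytochrome c1 of complex III, was higher (0.29, adjusted p = 0.031). The medians of the other lists were smaller, 0.13 over 26 assembly factors of complexes III to V (2 higher, 1 lower), 0.12 over 10 further complex I assembly factors (1 and 1) and 0.05 over 25 genes of mitochondrial transcription and RNA handling, of which 2 were lower. The median over 17 regulators of mitochondrial biogenesis was -0.002, and no member was called. Against wt, 2 of the 17 regulators were lower in nrxn2 full and 1 each in nrxn2 tmr, nrxn3 full and nrxn3 tmr, with 0 higher. In the same order, 5.08%, 4.77%, 4.19% and 3.71% of all genes were called lower. NRF1, a transcription factor of nuclear respiratory genes, was lower than wt in both nrxn2 lines, by -0.36 in nrxn2 full (adjusted p = 0.015) and -0.37 in nrxn2 tmr (adjusted p = 0.013). These NRF1 calls were not checked with libraries left out.

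In bulk tissue fewer cells of a type and less RNA per cell cannot be told apart. The libraries held the markers of brain cells. The summed level of 12 neuronal markers was 362000 to 373000 in wt and 364000 to 376000 in nrxn2 tmr. In nrxn2 full it was 374000, 398000 and 411000, above every wt library, the nearest values being 374000 and 373000. The 2 nrxn2 lines overlapped in this sum. Between the nrxn2 lines 5.91% of all genes were called higher in nrxn2 full and 5.95% lower. Without overlap, 14.7% of all genes lay higher and 14.3% lower. Of 9 oligodendrocyte markers 3 were called higher in nrxn2 full (median 0.59), among them mbpb (1.13), which encodes a myelin protein. Their summed level was 368000, 417000 and 437000 in nrxn2 full, 251000, 273000 and 328000 in nrxn2 tmr and 482000, 240000 and 271000 in wt, so that the 2 lines did not overlap. Of 12 neuronal markers 2 were higher and 2 lower (median 0.07), and of 12 markers of radial glia and astroglia none was called (median 0.22). The summed level of the astroglial list nevertheless did not overlap between the lines, with 252000 to 282000 in nrxn2 full, 236000 to 243000 in nrxn2 tmr and 212000 to 221000 in wt. Red blood cell markers, of which 0 of 5 were called, summed to 24200, 22200 and 23000 in nrxn2 full, 7360, 16200 and 14400 in nrxn2 tmr and 28000, 17900 and 19500 in wt. Markers of endothelium and blood vessels, with 0 of 6 called, summed to 4440 to 4910 in nrxn2 full, 3640 to 4210 in nrxn2 tmr and 3680 to 4750 in wt. Neither list overlapped between the 2 lines. The part of these cell types in the result was not tested. Tissue from outside the brain also differed between libraries. Skeletal muscle markers summed to 5780 in wt replicate 1 and to between 213 and 502 in all others. Of these 9 markers 3 were lower than wt in nrxn2 full, 3 in nrxn2 tmr, 4 in nrxn3 full and 2 in nrxn3 tmr. In the same order, 5.08%, 4.77%, 4.19% and 3.71% of all genes were called lower. The sums in wt replicates 3 and 5 were 252 and 256, below every library of both nrxn2 lines and within the range of each nrxn3 line. Retina markers summed to 14900, 48000 and 68600 in wt, to 19000, 429 and 674 in nrxn2 full and to 724, 9450 and 7680 in nrxn2 tmr. The part of these tissues in the levels of the members was not tested.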

How the data were processed

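RNA from whole brains of adult fish was made into libraries by the authors with the Illumina TruSeq Stranded mRNA kit, which selects poly(A) RNA, and sequenced as paired ends. Per the labels and the study's methods, reads were checked with FastQC 0.11.9 and MultiQC 1.9, trimmed with Trimmomatic 0.39 and aligned to GRCz11 by STAR 2.7.11b in 2-pass mode, which also counted reads per gene. The deposited table holds unnormalised read counts for 37241 gene identifiers in 24 libraries, and which of STAR's strand settings they come from is not stated. Symbols came from a table that matched 29201 identifiers (78.4%).

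Libraries were grouped by the genotype in the labels. Counts were scaled by DESeq2 1.42.0 size factors, and each gene that reached 10 counts in 3 or more libraries was tested by edgeR 4.0.16 (R 4.3.3) in a robust quasi-likelihood fit over all 24 libraries with 1 coefficient per genotype, with p-values adjusted by the Benjamini-Hochberg method over all genes tested. The values and 6 comparisons given here are of 15 of these libraries, and the other 9 are not reported here. A pseudocount of 1 was used for medians of log2 levels. The total count per library sets the precision, and low members such as UQCRB rest on few reads. The method was tested on simulated data.

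The members and the lists were chosen with earlier results of these data known. Genes named are every mitochondrially encoded member, the most counted nuclear member of each complex, the 3 largest rises and falls called per comparison and second copies of several of these. CYC1, NRF1 and mbpb were picked from among the called genes of the lists. NDUFB7, atp5md, NDUFAF1, atp5mf, ndufc1 and the unevenly detected members were named after their values were seen. Alternatives were other scalings, other filters, the DESeq2 test, a replicate block, only the libraries compared and each library left out. Sequences and promoters were not analysed here.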

Additional observations from a re-analysis of the deposited data

Results flagged for a closer look

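The full and tmr lines of a neurexin are 2 sets of libraries under the same contrast with wt, and the members below differed between them by edgeR's test of the difference itself, given as full minus tmr on the log2 scale at an adjusted p under 0.05. For nrxn2 there were 60 such members. Those named are MT-ND1 (0.419), MT-ND2 (0.405), MT-ND3 (0.546), MT-ND4 (0.433), mt-nd4l (0.41), MT-CYB (0.385), MT-CO1 (0.47), MT-CO2 (0.414), MT-CO3 (0.443), MT-ATP6 (0.549) and mt-atp8 (0.562) of the mitochondrial genome. mt-nd4l and MT-ND4 overlap on the genome, as mt-atp8 and MT-ATP6 do, so neither pair is 2 separate observations. The nuclear members named are NDUFB7 (0.451), ndufa5 (0.206) and NDUFAF1 (0.723) of complex I, SDHAF3 (0.383), sdhaf1 (-0.584) and the SDHD copy (0.664) of complex II, UQCRB (0.835) of complex III, COX4I1 (0.349), COX5A (0.373), cox6b2 (0.434) and cox8a (0.331) of complex IV, and atp5md (0.581) and atp5mf (0.268) of complex V. SDHAF2 differed by 6.709. The fitted value for NDUFAB1, 10.27, depends on the prior count, since nrxn2 tmr had no read. With 1 library left out, MT-ND2, mt-nd4l, MT-CYB, MT-ATP6, mt-atp8, SDHAF3, atp5mf and NDUFAB1 each lost this call in 5 of 6 fits.

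For nrxn3 there were 4, NDUFAF7 (-0.736), SDHAF3 (-0.497), the SDHD copy (0.839) and MT-ND6 (0.624). No member or summed value had a group large enough for a test of single outlying libraries.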

How the results depend on the processing

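Of the calls of named members, 50 in number, none changed direction in any alternative. None was lost with TMM factors, with size factors computed without the mitochondrially encoded genes or with the DESeq2 test, 3 were lost with the library total as scale, 7 without a filter on low counts, 29 when the fit held only the libraries compared, and 128 of 300 single cases of a library left out. The labels do not say whether libraries with the same replicate number share a day or another step. Pairs of libraries with the same number had deviations that correlated at a median of 0.0069 (53 pairs, from -0.192 to 0.173, 4 of them over 0.1). In the 199 pairs with other numbers the median was -0.0023. The samples were not taken as paired, and whether they share a day was not tested. With a replicate block 15 of the 50 calls were lost. The members called became 3 in nrxn2 tmr, 2 of them shared with the 8 of the main fit. They became 39 in nrxn2 full minus tmr, all 39 of them shared with the 60.

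With only the libraries compared the members called were 0 in nrxn2 full, 4 in nrxn2 tmr, 1 in nrxn3 full, 2 in nrxn3 tmr and 17 in nrxn2 full minus tmr, a fit with fewer libraries behind the spread. Of these, 1 in nrxn2 tmr, 1 in nrxn3 full, 0 in nrxn3 tmr and 16 in nrxn2 full minus tmr were calls of the main fit. DESeq2 called 12 in nrxn2 full, 13 in nrxn2 tmr and 5 in nrxn3 full. With the library total as scale nrxn3 full had 5. The cause was not tested.

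Leaving out 1 library gave from 2 to 40 members called in nrxn2 full, 2 to 8 in nrxn2 tmr, 1 to 5 in nrxn3 full and 0 to 4 in nrxn3 tmr. It gave 13 to 78 in nrxn2 full minus tmr and 2 to 5 in nrxn3 full minus tmr. With a median over members in place of a sum, the ratio to nuclear subunits became -0.059 for complex I and -0.04 for complex IV in nrxn2 full, -0.138 for complex I in nrxn2 tmr, -0.02 for complex I in nrxn3 full, and 0.112 for complex I and 0.462 for complex IV in nrxn3 tmr. Members with few reads, such as ndufa9b and ndufa4b, carry little information at this depth.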
